A study of Homo sapiens with 3 samples.

Results

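The ATG8 family genes *GABARAP*, *GABARAPL1*, *GABARAPL2*, *MAP1LC3A* and *MAP1LC3B*, the autophagy receptor gene *SQSTM1* and the protease gene *ATG4B* were followed as 7 named members among 26562 genes. They were chosen by name with earlier results of these libraries in view, *GABARAPL2* among them for its higher values, so their differences are given as a description with no test. Each member's value is the sum of the deposited FPKM over its RefSeq transcripts, where FPKM counts fragments relative to the length of the transcript and the total of mapped fragments. The RNA came from MTAC-P, a cell line made from the lung cancer line PC9 and resistant to inhibitors of the EGFR tyrosine kinase, in 3 RNA-seq libraries. Short hairpins labelled shBCAT1, against the cytosolic branched-chain aminotransferase gene *BCAT1*, were carried by 2 libraries, and the control (1 library) carried a hairpin against luciferase. The comparison asks which of these transcripts differ when *BCAT1* is targeted. Whether shBCAT1-labelled libraries 1 and 2 hold 1 hairpin, or were grown as separate cultures, is not in the labels, so the spread between them may be technical.

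Autophagy delivers cytoplasmic cargo to the lysosome inside a double membrane. ATG8 proteins are small ubiquitin-like proteins that ATG4 proteases trim at the C-terminus, after which ATG7 and ATG3 attach them to phosphatidylethanolamine in the growing membrane. There they bind receptors such as p62, the product of *SQSTM1*, which holds ubiquitinated cargo and is itself degraded with it. RNA levels do not measure the lipid-bound ATG8 protein or the rate at which cargo is degraded.

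FPKM summed to 44313 in shBCAT1-labelled library 1, 46145 in shBCAT1-labelled library 2 and 53898 in the control, read totals being unknown. The error given with each value is the pair of confidence bounds deposited by the authors, combined over transcripts. It covers counting and the assignment of fragments within a library, not the spread between libraries. For genes that averaged 1 FPKM or more the median error, taken as 1 SD, was 13.6%, 12.5% and 13.2% of the value in these libraries. *BCAT1* did not have lower values in the shBCAT1-labelled libraries, with 1.05 FPKM (0.835 to 1.27) and 0.241 FPKM (0.158 to 0.325) against 0.213 FPKM (0.129 to 0.297) in the control. It was 4.96 times the control in shBCAT1-labelled library 1, with bounds above it. In shBCAT1-labelled library 2 it was 1.13 times the control, with overlapping bounds. The shBCAT1-labelled libraries thus also differed from each other in *BCAT1*, and each direction below is between libraries as labelled. The summed FPKM of 8 epithelial markers was 786 and 1092 in shBCAT1-labelled libraries 1 and 2 and 937 in the control, most of it from keratins. The lung lineage markers *NKX2-1* and *SFTPB* were at 0.0326 and 0.0245 FPKM in shBCAT1-labelled library 1, listed at 0 and at 0.0513 FPKM in shBCAT1-labelled library 2, and at 0.101 FPKM and listed at 0 in the control. The 11 markers of immune, endothelial and fibroblast cells summed to 0.627 and 0.444 FPKM in shBCAT1-labelled libraries 1 and 2 and 0.385 FPKM in the control, with 6, 5 and 6 of them listed at 0. In RNA of a whole culture, fewer cells of a type and less RNA per cell cannot be told apart.

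*GABARAPL2* was the member whose value differed from the control by the largest factor where the control was above 0. It encodes the ATG8 protein also known as GATE-16, which acts in late autophagosome formation and in transport within the Golgi. Its single RefSeq transcript lies on chromosome 16, from 75566351 to 75577881 (hg38). It stood at 3.23 FPKM (bounds 2.21 to 4.25) in shBCAT1-labelled library 1 and 2.14 FPKM (1.33 to 2.95) in shBCAT1-labelled library 2, against 1.08 FPKM (0.481 to 1.68) in the control. Both shBCAT1-labelled libraries were higher than the control, while the bounds lay apart from it in shBCAT1-labelled library 1 and overlapped with it in shBCAT1-labelled library 2. The bounds of the shBCAT1-labelled libraries overlapped each other.

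The mean over the shBCAT1-labelled libraries was 2.68 ± 0.77 FPKM (SD, n = 2), which is 2.48 times the control. In single libraries the ratio to the control was 2.99 in shBCAT1-labelled library 1 and 1.98 in shBCAT1-labelled library 2, and the differences in log2(FPKM + 1) were 1.02 and 0.59. Few fragments stand behind these values. Read as counting error alone, the width of the bounds corresponds to 40.0 and 28.0 fragments in shBCAT1-labelled libraries 1 and 2 and to 13.0 in the control. Of all 3889 genes that averaged 1 FPKM or more, 64 (1.65%) had bounds above those of the control in shBCAT1-labelled library 1 and 286 (7.35%) in shBCAT1-labelled library 2, with 49 (1.26%) above it in both and 162 (4.17%) below it in both. Of the 7 members, 4 reached that mean, and *GABARAPL2* was the only member with bounds above the control in shBCAT1-labelled library 1, with none in the other. The choice of members used this contrast, and nothing is read from that count.

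Differences varied with transcript length over all genes, and the *GABARAPL2* transcript has 1002 bases. The 509 genes of 800 to 1200 bases had a median difference in log2(FPKM + 1) of -0.24, that is -0.30 and -0.21 in shBCAT1-labelled libraries 1 and 2, while the 696 genes of 2400 to 3400 bases had a median of 0.02. *GABARAPL2*, with a mean difference of 0.81, went the other way from that median.

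The genes most like *GABARAPL2* in their pair of differences from the control, among 3608 protein-coding genes, were *PLA2G10*, a secreted phospholipase gene, the kinase gene *TNIK* and the transcription factor gene *ATF7*. Their distances to it, over the log2(FPKM + 1) differences of the shBCAT1-labelled libraries, were 0.25, 0.26 and 0.35. *PLA2G10* had 2.35 and 1.42 FPKM in these libraries, against 0.842 FPKM in the control. The likeness rests on 2 differences that share the control library.

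The bases that precede the deposited start of *GABARAPL2* are shown because it is the member with the larger difference. They come from the RefSeq promoter window on GRCh38.p14, with GC boxes (GGGCGG on either strand), a binding motif of SP1 family factors, in capitals.
GABARAPL2 (chr16:75566129-75566350, + strand): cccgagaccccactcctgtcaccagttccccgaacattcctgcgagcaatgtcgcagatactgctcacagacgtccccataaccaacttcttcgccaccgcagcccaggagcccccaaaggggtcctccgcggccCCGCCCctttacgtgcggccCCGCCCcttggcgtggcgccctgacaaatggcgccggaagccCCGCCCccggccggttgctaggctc

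In the 250 bases before a RefSeq start, a GC box was found for each of the 6 members that have such a window. Of 34943 windows of all genes, expressed or not, 42.5% held one. *SQSTM1* has several windows and the members are counted by gene, so these figures are not like for like. The E-box CACGTG, the centre of the motif bound by the autophagy regulator TFEB, was found in 6.32% of windows and in that of none of the 6. The cyclic AMP response element TGACGTCA, in 1.63% of windows, was found once, in that of *GABARAPL1*. Matches on either strand counted. They are matches of letters and not measured binding, and TFEB sites outside these bases were not searched.

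*GABARAP*, on chromosome 17 from 7240419 to 7242434, held most of the ATG8 FPKM. It is the founding member of its subfamily and was named for its binding to the GABA type A receptor. It had 11.9 FPKM (9.76 to 14.0) and 11.0 FPKM (9.07 to 13.0) in shBCAT1-labelled libraries 1 and 2, against 14.1 FPKM (11.7 to 16.4) in the control. Both shBCAT1-labelled libraries were below the control, with bounds that overlapped it in both, while after quantile normalization the differences in log2(FPKM + 1) were 0.03 in shBCAT1-labelled library 1 and -0.15 in shBCAT1-labelled library 2. The mean was 11.5 ± 0.58 FPKM (SD, n = 2), 0.815 times the control, and the mean difference in log2(FPKM + 1) was -0.27. Genes of 1400 to 1900 bases, a range that holds the 1634 bases of its transcript, had a median difference of -0.11. The 1042 genes that averaged 5 FPKM or more, *GABARAP* among them, had a median difference of -0.22.

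*GABARAPL1*, on chromosome 12 from 10212890 to 10223125, was nearly level across the libraries. It encodes a close relative of GABARAP and had 0.543 FPKM (0.253 to 0.833) and 0.477 FPKM (0.212 to 0.741) in shBCAT1-labelled libraries 1 and 2, against 0.519 FPKM (0.231 to 0.807) in the control. Its bounds corresponded to 14.0, 13.0 and 13.0 fragments, too few to show a small difference at this depth. The related transcribed pseudogene *GABARAPL3* was listed at 0 in all 3 libraries.

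Of the LC3 genes, *MAP1LC3B*, whose protein is the usual marker of autophagosomes, had the highest values. It lies on chromosome 16 from 87392195 to 87404774 and had 0.588 FPKM (0.318 to 0.858) and 0.863 FPKM (0.545 to 1.18) in shBCAT1-labelled libraries 1 and 2, against 1.04 FPKM (0.673 to 1.40) in the control. The ratio to the control was 0.567 in shBCAT1-labelled library 1 and 0.833 in library 2, with bounds overlapping the control in both. The width of its bounds corresponded to 19.0, 29.5 and 32.5 fragments in the same order. *MAP1LC3B2*, a near-identical gene on another chromosome, was listed at 0 in shBCAT1-labelled library 1. It had 0.0485 FPKM in shBCAT1-labelled library 2 and 0.0528 FPKM in the control, each worth 0.50 of a fragment, so reads shared between the copies may have been split and both values are uncertain to that extent. *MAP1LC3A*, on chromosome 20 from 34546884 to 34560345, was listed at 0 in shBCAT1-labelled library 1, at 0.0838 FPKM (0 to 0.313) in shBCAT1-labelled library 2 and at 0 in the control. *MAP1LC3C*, the other LC3 gene, was at 0.0543 and 0.186 FPKM in shBCAT1-labelled libraries 1 and 2 and 0.119 FPKM in the control.

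**Figure D1:**
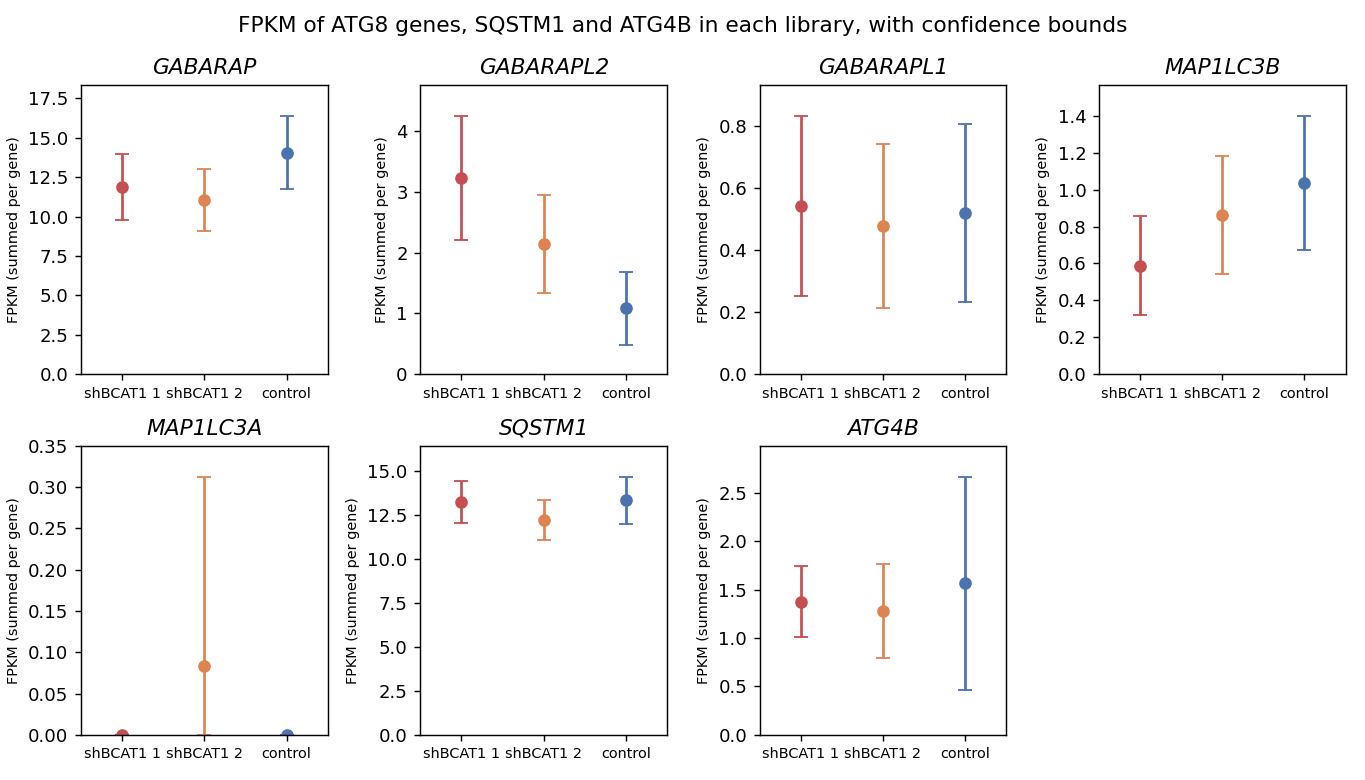
FPKM of each member (vertical axis, from 0, its own scale in each panel) in shBCAT1-labelled libraries 1 and 2 and in the control, with the deposited confidence bounds as bars. GABARAPL2 has 3.23 and 2.14 FPKM in the shBCAT1-labelled libraries against 1.08 FPKM in the control. Its bar lies apart from the control in shBCAT1-labelled library 1 and overlaps it in shBCAT1-labelled library 2, and the bars of the other members overlap the control.

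The summed FPKM of the 5 ATG8 genes differed less between libraries than *GABARAPL2* did. It was 16.2 FPKM (13.8 to 18.6) in shBCAT1-labelled library 1 and 14.6 FPKM (12.4 to 16.8) in shBCAT1-labelled library 2, against 16.7 FPKM (14.2 to 19.1) in the control, with overlapping bounds. *GABARAPL2* made up 19.9% and 14.6% of this sum in shBCAT1-labelled libraries 1 and 2, against 6.48% in the control. *GABARAP* made up 73.1% and 75.6%, against 84.2% in the control. The ratio of *GABARAPL2* to *GABARAP* was 0.272 and 0.193 in shBCAT1-labelled libraries 1 and 2, against 0.0769 in the control. This ratio is taken within a library and does not depend on a scaling factor of the library. It uses the same *GABARAPL2* values as above and adds no separate evidence, and its control value rests on 13.0 fragments of *GABARAPL2*. Whether the trend with transcript length affects it, with 1002 bases for *GABARAPL2* and 1634 for *GABARAP*, was not tested. *MAP1LC3A* and *MAP1LC3B* together stayed between 0.588 and 1.04 FPKM, so that in each library more than 13 FPKM of the sum belonged to the GABARAP subfamily.

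**Figure D2:**
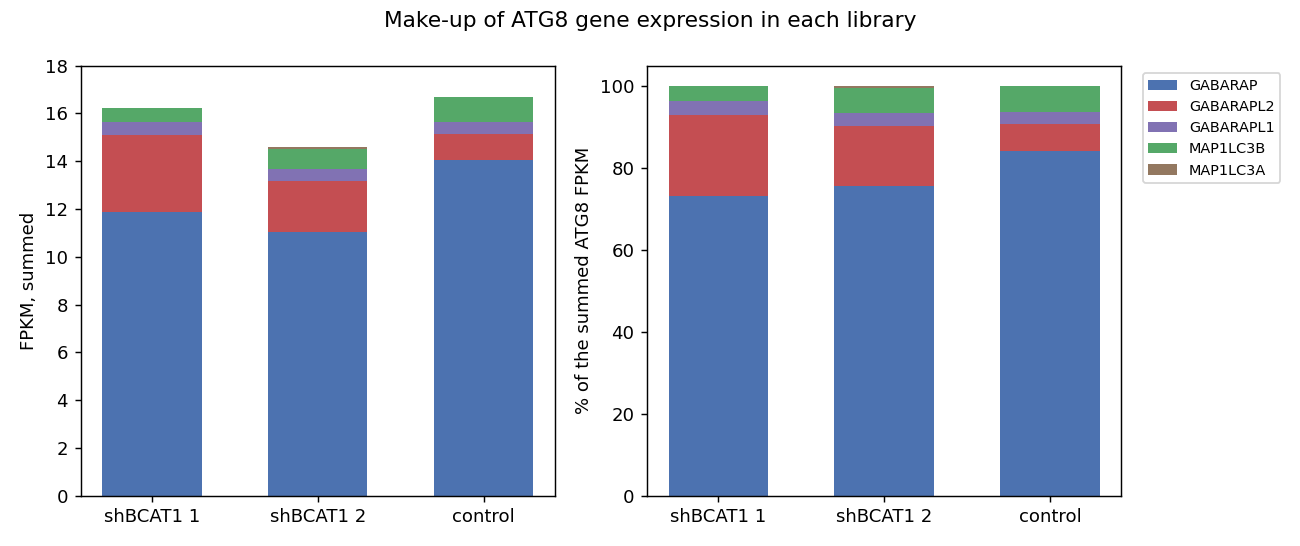
Stacked bars of the 5 ATG8 genes in each library, as summed FPKM (left) and as a percentage of that sum (right). The GABARAPL2 segment is 19.9% and 14.6% in shBCAT1-labelled libraries 1 and 2 and 6.48% in the control, while the height of the whole bar is between 14.6 and 16.7 FPKM.

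*SQSTM1*, on chromosome 5 from 179806388 to 179838077, was at a similar summed level in all 3 libraries. It had 13.2 FPKM (12.0 to 14.4) and 12.2 FPKM (11.1 to 13.3) in shBCAT1-labelled libraries 1 and 2, against 13.3 FPKM (12.0 to 14.7) in the control. The mean of the shBCAT1-labelled libraries was 12.7 ± 0.71 FPKM (SD, n = 2), 0.955 times the control, and the bounds overlapped the control in both. The differences in log2(FPKM + 1) were -0.01 and -0.12, with a mean of -0.06 that was 0.18 after quantile normalization. By distance in these differences the genes most like it were *YY1AP1*, *BRMS1* and *LSM10*, at 0.0086, 0.017 and 0.019. They too were nearly level, while the 1042 genes that averaged 5 FPKM or more had a median difference of -0.22.

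The make-up of *SQSTM1* by transcript was not level. The files hold 3 RefSeq transcripts that end at the same base and differ in where they start. The transcript with the start farthest downstream, NM_003900, encodes the full-length p62 protein, while RefSeq lists a shorter protein, with a truncated N-terminus, for both upstream starts. NM_003900 carried most of the FPKM, with 12.0 (10.8 to 13.1) and 11.0 (9.98 to 12.1) in shBCAT1-labelled libraries 1 and 2, against 10.2 (9.11 to 11.3) in the control. NM_001142298, which starts 14454 bases upstream of it, had 1.25 FPKM (0.780 to 1.72) and 1.18 FPKM (0.737 to 1.62), against 1.14 FPKM (0.678 to 1.59) in the control. Its first 565 bases lie within the locus of *MGAT4B*, a glycosyltransferase gene on the other strand at 7.74 and 7.72 FPKM, against 7.64 FPKM in the control. Whether the libraries keep strand is not stated, so reads of *SQSTM1* and *MGAT4B* may not be told apart there.

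The remaining transcript, NM_001142299, starts 615 bases after NM_001142298 with 50 bases between it and the end of the *MGAT4B* locus. It was near 0 in shBCAT1-labelled libraries 1 and 2, with upper bounds of 0.0495 and 0.0465 FPKM, against 1.96 FPKM (1.35 to 2.56) in the control. Its bounds lay below those of the control in both. In the control it made up 14.7% of the *SQSTM1* FPKM, and its bounds there were as wide as those of 42.0 fragments. NM_003900 made up 90.5% and 90.3% of the *SQSTM1* FPKM in shBCAT1-labelled libraries 1 and 2, against 76.7% in the control. Bounds apart from the control in both libraries, whatever the size of the difference, were common in these files. Among 3873 transcripts with a mean of at least 0.5 FPKM from genes with several, 196 (5.06%) had bounds below the control in both shBCAT1-labelled libraries and 184 (4.75%) above it in both. NM_001142299 reached that mean only through the control. At a minimum mean of 1 FPKM, which it does not reach, 137 were below the control in both. Of the 196, 100 (2.58% of all 3873) belonged to genes whose summed bounds overlapped the control in both libraries, as for *SQSTM1*. Fragments that fall in sequence shared by transcripts were assigned in each library on its own, and whether a real use of this start or that assignment differs was not tested.

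**Figure D3:**
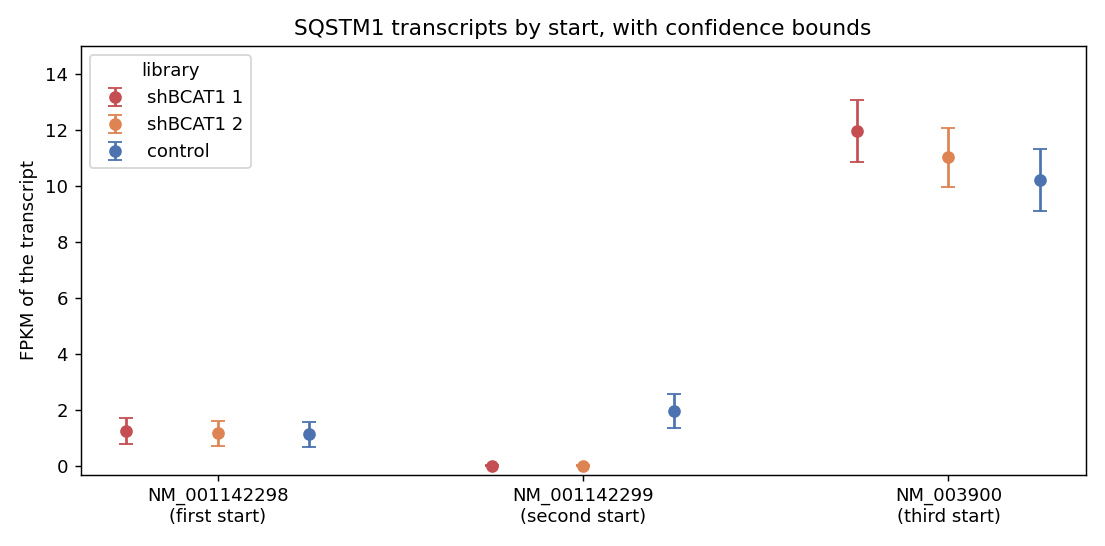
FPKM of the 3 SQSTM1 transcripts (vertical axis), ordered by their start from upstream to downstream, in shBCAT1-labelled libraries 1 and 2 and the control, with the deposited confidence bounds as bars. NM_001142299 is at 1.96 FPKM in the control and near 0 in both shBCAT1-labelled libraries, and the bars of the other transcripts overlap.

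The bases before each deposited *SQSTM1* start are shown because the transcripts differ there, with GC boxes in capitals, from RefSeq on GRCh38.p14. The windows end at the base before the deposited start, which lies 5, 6 and 63 bases upstream of the RefSeq start in the order printed.
NM_001142298 (chr5:179806143-179806387, + strand): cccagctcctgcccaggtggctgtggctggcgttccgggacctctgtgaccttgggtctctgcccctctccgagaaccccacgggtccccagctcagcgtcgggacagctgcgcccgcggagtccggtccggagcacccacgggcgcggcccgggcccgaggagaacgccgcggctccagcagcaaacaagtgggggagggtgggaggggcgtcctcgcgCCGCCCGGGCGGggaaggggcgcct
NM_001142299 (chr5:179806759-179807002, + strand): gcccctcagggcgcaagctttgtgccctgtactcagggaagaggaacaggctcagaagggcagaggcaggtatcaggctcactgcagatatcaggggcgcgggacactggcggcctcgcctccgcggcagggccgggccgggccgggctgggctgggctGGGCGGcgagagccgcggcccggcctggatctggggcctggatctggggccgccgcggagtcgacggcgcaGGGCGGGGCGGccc
NM_003900 (chr5:179820655-179820841, + strand): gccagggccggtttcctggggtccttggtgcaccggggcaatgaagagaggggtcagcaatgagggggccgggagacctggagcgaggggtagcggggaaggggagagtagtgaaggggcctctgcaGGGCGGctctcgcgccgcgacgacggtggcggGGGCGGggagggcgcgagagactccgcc
These windows hold 2, 3 and 2 GC boxes and are 75.1%, 74.6% and 72.2% G and C.

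*ATG4B*, on chromosome 2 from 241637612 to 241673856, encodes the protease that primes ATG8 proteins and can release them from lipid. It had 1.38 FPKM (1.01 to 1.74) and 1.28 FPKM (0.792 to 1.76) in shBCAT1-labelled libraries 1 and 2, against 1.56 FPKM (0.465 to 2.66) in the control. The mean of the shBCAT1-labelled libraries was 1.33 ± 0.070 FPKM (SD, n = 2), 0.847 times the control, and the wide bounds of the control covered both libraries. These bounds were as wide as those of 56.0, 27.8 and 8.10 fragments. They also cover the assignment of fragments between 2 transcripts, so these values are not numbers of fragments. Most of the value lay on NM_013325, with 1.38 and 0.980 FPKM in shBCAT1-labelled libraries 1 and 2, against 1.32 FPKM in the control. The second transcript, NM_178326, was near 0 and at 0.296 FPKM, against 0.245 FPKM in the control, with bounds from 0 in each library.

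The same members stood at the upper and lower ends of the order in all 3 libraries. *SQSTM1* and *GABARAP* held the first places, *SQSTM1* before *GABARAP* in both shBCAT1-labelled libraries and after it in the control, with bounds that overlapped each other, at ranks 371 and 416 of 14620 genes above 0 in shBCAT1-labelled library 1, 431 and 482 of 14912 in shBCAT1-labelled library 2, and 454 and 427 of 14642 in the control. *GABARAPL1* and *MAP1LC3A* were the lowest in each, though the bounds of *GABARAPL1* overlapped those of *MAP1LC3B* in every library. In between, *GABARAPL2* stood at rank 1437 in shBCAT1-labelled library 1 and 2284 in shBCAT1-labelled library 2, against 3645 in the control. It lay above *ATG4B* in both shBCAT1-labelled libraries, with bounds apart from those of *ATG4B* in shBCAT1-labelled library 1. In the control it lay below *ATG4B* and next to *MAP1LC3B*, and all of these bounds overlapped.

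The other genes of the pathway were taken from lists of 66 genes, of which 14 had a mean of at least 1 FPKM. By limma on log2(FPKM + 1), with Benjamini-Hochberg adjustment over 3889 genes, 0 of the 14 rose and 0 fell at an adjusted p of 0.05, and 0 passed in either direction at an unadjusted p under 0.05. Over all 3889 genes 0 rose (0%) and 14 fell (0.360%), and at an unadjusted p under 0.05 there were 25 higher (0.643%) and 193 lower (4.96%). The genes that fell were listed at 0 in both shBCAT1-labelled libraries and were small RNA genes, apart from *SNHG25*, which hosts small nucleolar RNAs. They reached the minimum mean only through the control. Their pair of shBCAT1-labelled values had no spread, so the count of 14 says little about genes measured in every library. Of the 14 autophagy genes 4 were higher and 8 lower in both shBCAT1-labelled libraries, with a median difference of -0.15. Of all 3889 genes 25.6% were higher and 43.7% lower in both, with a median of -0.06. Both comparisons share the control library.

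Among genes that trim ATG8 or attach it to lipid, 3 of 10 had a mean of at least 1 FPKM, called measured for these lists. *ATG3*, the E2-like enzyme of the reaction, was at 1.62 ± 0.098 FPKM in the shBCAT1-labelled libraries (SD, n = 2), against 1.17 FPKM in the control. *ATG7*, the E1-like enzyme, was at 0.916 ± 0.32 FPKM against 1.24 FPKM, and *ATG4D*, another ATG4 protease, at 1.17 ± 0.25 FPKM against 1.86 FPKM. The limma adjusted p-values were 0.804 for *ATG3*, 0.842 for *ATG7* and 0.797 for *ATG4D*. Of the ULK complex, which starts autophagosome formation, 1 of 5 genes was measured, *ATG101*, at 4.96 ± 0.51 FPKM against 5.99 FPKM in the control. Of 9 genes on a list of ATG9, ATG2 and WIPI proteins with *VMP1* and *TMEM41B*, which act in growth of the membrane, 2 were measured. *ATG9A*, the lipid scramblase of ATG9 vesicles, was at 1.13 ± 0.032 FPKM against 0.934 FPKM in the control, and *WDR45B* at 1.30 ± 0.079 FPKM against 1.48 FPKM.

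Of 18 other receptor genes, 5 were measured, 1 of them higher and 3 lower in both shBCAT1-labelled libraries. *NCOA4*, the receptor for ferritin, was at 1.38 ± 0.15 FPKM in these libraries (SD, n = 2). In the control it was at 1.14 FPKM, with wide bounds (0 to 2.68). *TEX264*, a receptor for the endoplasmic reticulum, was at 2.23 ± 0.12 FPKM against 3.32 FPKM, and *FKBP8*, a mitochondrial outer membrane receptor, at 14.6 ± 0.74 FPKM against 18.9 FPKM. Of 10 genes of fusion with the lysosome, 3 were measured. *RAB7A*, the small GTPase of late endosomes, had 8.68 and 12.2 FPKM in shBCAT1-labelled libraries 1 and 2, against 7.44 FPKM in the control, and *VAMP8*, a SNARE of the fusion step, had 15.2 and 13.7 FPKM against 17.5 FPKM. The adjusted p of limma was 0.804 for *RAB7A* and 0.827 for *VAMP8*, and the smallest of the 14 was 0.797. Against the control, bounds lay apart for 0 of the 14 genes in shBCAT1-labelled library 1. In shBCAT1-labelled library 2 they lay above it for *RAB7A* and below it for *ATG7* and *FKBP8*. Over all genes these bounds lay above the control for 1.65% in shBCAT1-labelled library 1 and 7.35% in shBCAT1-labelled library 2, and below it for 7.61% and 7.66% in these libraries. Of the 1042 genes that averaged 5 FPKM or more, as *RAB7A* and *FKBP8* did, 83 lay above and 230 below it in shBCAT1-labelled library 2.

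None of the 8 genes of the class III PI3 kinase complexes, the 4 transcription factors or the 2 other ATG8 genes on the lists reached a mean of 1 FPKM. With no minimum, 2 of the 66 genes had an unadjusted p under 0.05, both lower. Of all 16449 genes 788 (4.79%) were lower and 260 (1.58%) higher at that p. Both autophagy genes were named after their values had been seen. *FUNDC1*, a mitochondrial receptor gene, was at 0.0667 and 0.126 FPKM in shBCAT1-labelled libraries 1 and 2, against 0.412 FPKM in the control. *BNIP3L*, another such gene, was at 0.157 and 0.148 FPKM, against 0.444 FPKM in the control. Their limma adjusted p-values over 16449 genes were 0.767 and 0.773, so neither passed.

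**Figure D4:**
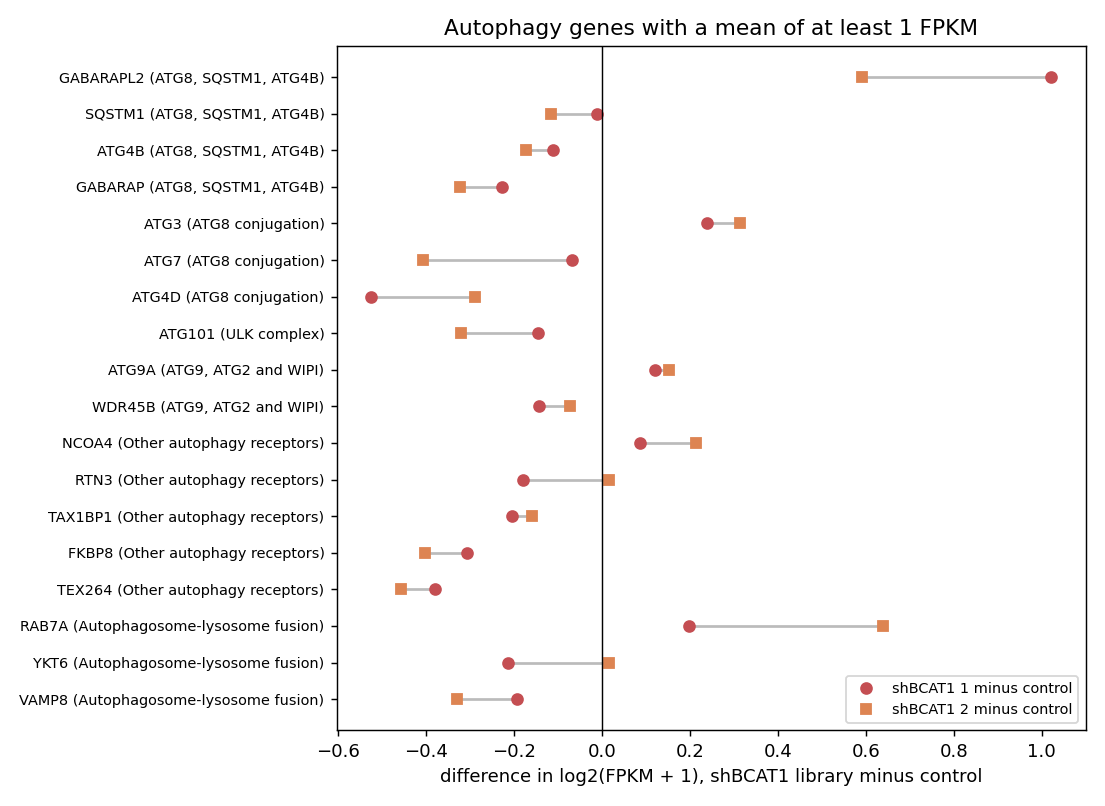
Difference in log2(FPKM + 1) from the control (horizontal axis) for shBCAT1-labelled library 1 (circles) and shBCAT1-labelled library 2 (squares), for members and other autophagy genes that averaged 1 FPKM or more, grouped by role. GABARAPL2 is at 1.02 and 0.59, RAB7A at 0.20 and 0.64, and none of the 14 other autophagy genes passed the limma test.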

How the data were processed

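RNA of MTAC-P cells grown in serum was extracted with Trizol and sequenced in 3 libraries, per the labels' protocols, and groups follow the knockdown label. Per the submitters' processing notes, Trim Galore, TopHat, Cufflinks and hg38 were used. Their versions and settings, the annotation and the strand were not given in the sources used here, and the authors deposited FPKM values, 1 per RefSeq transcript and locus with confidence bounds, quantified separately in each library.

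The 56882 entries held 50337 accessions. RefSeq (GRCh38.p14) named 49281 and GENCODE 29 another 645. FPKM was summed per gene, with 1 SD taken as 0.5 of the distance from value to upper bound and combined as a root sum of squares, as if errors of transcripts were independent. The square of value over SD is read as fragments, which is too low where assignment between transcripts adds to the error. Genes with a status other than OK (341) were left out. Transcript lengths came from GENCODE 29.

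All remaining genes that averaged 1 FPKM or more (3889) entered limma 3.58.1 (R 4.3.3) on log2(FPKM + 1), a scale that understates changes of low genes, with an intensity trend and two-sided p-values. The members that reached this mean were in the fit and the adjustment, but their p-values are not given. With 1 control library, the spread rests on the shBCAT1-labelled pair (residual degrees of freedom 1, prior 2.99) and is assumed to hold for the control. Adjusted p-values with so few degrees of freedom are approximate. Named genes are the members and, per list, up to 2 in each direction by the smaller difference of the same sign, and the 3 genes nearest in pattern. Members and lists were chosen with earlier results of these data known. Counts of single transcripts were added after seeing the data. Tables and plots were made in Python 3.11.15 (matplotlib 3.10.9, numpy 2.4.6, pandas 2.3.3).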

Additional observations from a re-analysis of the deposited data

How the results depend on the processing

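The difference of *GABARAPL2* stayed above 0 under all 8 alternatives that kept it, from 0.33 with a pseudocount of 5 to 1.21 with a pseudocount of 0.1, and was 0.59 and 1.02 with 1 shBCAT1-labelled library left out. Most of these could not change its sign. A pseudocount cannot, and no filter, the largest entry and leaving out loci under 300 bases gave the same 0.81. Median-of-ratios scaling, quantile normalization and removal of the length trend could, and gave 0.86, 0.81 and 1.05. The mean of *GABARAPL2* is below 5 FPKM, so that minimum gives it no value. The difference of *SQSTM1* was -0.06 and changed sign under 3 of 9 alternatives, among them quantile normalization (0.18) and its largest transcript alone (0.15). The cause of the first was not tested, and the second leaves out both upstream transcripts. It was -0.12 and -0.01 with 1 library left out. For *GABARAP* and *MAP1LC3B*, with 1 transcript each, pseudocounts, filters and the largest entry likewise could not change the sign. The mean differences of *GABARAP*, *MAP1LC3B* and *ATG4B* stayed below 0 under every alternative that kept them. After quantile normalization that of *GABARAP* was -0.06 ± 0.13 (SD, n = 2), with 0.03 in shBCAT1-labelled library 1, and *ATG4B* was at 0.03 in that library with its largest transcript alone. The mean of *GABARAPL1* changed sign in 2 of 6.

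By limma, 14 genes fell as reported, 8 at a minimum of 5 FPKM, 8 with the largest entry of each gene, 1 (*SNHG25*) without loci under 300 bases and 0 with no filter (at an unadjusted p under 0.05, 260 were higher and 788 lower). Genes that rose numbered 1 (*SCARNA16*) with a pseudocount of 0.1 and 2 (*SCARNA16* and *RNA5S9*) with the length trend removed. Of the other autophagy genes 0 passed under every alternative. Genes with bounds above the control in shBCAT1-labelled library 1 numbered 141 with median-of-ratios scaling (147 below) and 125 with the largest entry (391 below). Of the 1042 genes at a minimum of 5 FPKM, 16 were above and 243 below it in shBCAT1-labelled library 1. In shBCAT1-labelled library 2, 83 of them were above and 230 below. Leaving out a library leaves 1 against 1, with no test. No paired analysis was possible because there is a single control library, so that the groups share fewer than 2 replicate numbers. Values of 40.0 fragments or fewer limit what these libraries can show for *GABARAPL1*, *GABARAPL2*, *MAP1LC3B* and *MAP1LC3A* in each library. For *ATG4B* in shBCAT1-labelled library 2 and the control the limit is wide bounds, which also cover the assignment of fragments between its 2 transcripts.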
